A study of Mus musculus with 35 samples.

Results

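The comparison concerned podocytes of mice in which the only intact copy of *Lmx1b* in these cells carried the H77L substitution, set against podocytes with a wild-type copy, both taken from mice that had received the solvent DMSO. *Lmx1b* H77L/lox mice and *Lmx1b* +/lox mice, called H77L and control mice from here on, were represented by 6 mice each, that is 12 of the 35 mice of the series. They were chosen by the genotype and treatment in their labels, and genes were described where all 6 mice of the control group, of the H77L group or of both exceeded 1 TPM, which were 10964 of the 33292 genes in the table. TPM is the abundance of a transcript scaled to its length and to the library.

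The series was made to learn how amino acid exchanges in the LIM domains of Lmx1b change podocytes, and it also holds *Lmx1b* C118F/lox mice and mice treated with the proteasome inhibitor bortezomib. All mice carried a floxed *Lmx1b* allele, a reverse tetracycline transactivator under a podocyte-specific promoter fragment of human origin, Cre recombinase under tet operator elements and the mT/mG reporter, in which a cell turns from red to green once Cre has acted. The control mice therefore had 1 working copy of *Lmx1b* in their podocytes and were not wild-type. Mice were 7 to 10 weeks old, drank doxycycline at 2 mg/ml until day 7 and were injected with DMSO every other day, after which green podocytes were sorted and the poly(A) RNA of each mouse was sequenced separately. Cells in which Cre had not acted stayed red and were not collected.

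Lmx1b is a transcription factor with a homeodomain that binds DNA and a pair of LIM domains that bind partner proteins. In the kidney it is made by podocytes, the cells that wrap glomerular capillaries with interlocking foot processes, joined by the slit diaphragm and anchored to the glomerular basement membrane. Loss of 1 copy of the human gene causes nail-patella syndrome, whose renal disease arises in podocytes.

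*Lmx1b* itself was listed at 44.8, 70.7, 72.2, 89.7, 75 and 64.9 TPM in control mice 1 to 6 and at 89.9, 139, 109, 110, 130 and 139 TPM in H77L mice 1 to 6. The groups touched without overlapping, with control mouse 4 barely below H77L mouse 1, and the log2 fold change of H77L over control mice was 0.78 (SE 0.15, adjusted p = 7.9e-04). With the level of *Xist* as a covariate, a stand-in for sex, which the labels do not give, the adjusted p of *Lmx1b* was 0.0781. Both alleles and all exons add to this value, so that it did not show whether the floxed allele had been removed. All fold changes are differences of log2(TPM + 1) fitted with limma, with p-values adjusted over the 10964 genes, and this scale understates changes of genes with low TPM.

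The sorted cells had the transcripts of podocytes. Levels are given from here on as the median over the 6 mice of a group, with the lowest and the highest mouse in brackets. Podocalyxin (*Podxl*), which coats the podocyte surface, had 7322 TPM (5581 to 8991) in control mice and 3469 TPM (2600 to 4073) in H77L mice, and the receptor phosphatase *Ptpro* 885 TPM (600 to 1121) and 371 TPM (340 to 469). The defining endothelial genes *Pecam1* and *Cdh5*, the leukocyte gene *Ptprc* and the tubular gene *Lrp2* did not pass the filter on low values. Summed over each marker list, 9 endothelial genes reached 20.8 TPM (16.6 to 75.1) in control and 21.7 TPM (13.5 to 35.4) in H77L mice, 11 leukocyte genes 24.7 TPM (5.96 to 489) and 15.4 TPM (12.1 to 36.5), 10 tubule genes 135 TPM (40.2 to 2116) and 19.3 TPM (13.3 to 861), and 5 red cell genes 0.624 TPM (0 to 93.5) and 0.0354 TPM (0 to 3.52). Single members went the other way, with *Csf1r*, a macrophage receptor, at 3.67 TPM (3.07 to 7.19) in control and 10.8 TPM (5.6 to 21.3) in H77L mice (adjusted p = 0.00157), and *Cubn*, a tubular receptor, at 0.0886 TPM (0 to 1.69) and 3.35 TPM (1.09 to 5.61, adjusted p = 0.00135), both with overlapping groups. *Cubn* was tested only because its H77L mice passed the filter. The high ends of the sums came from single libraries, with 285 TPM of the macrophage gene *Lyz2* in control mouse 1, 416 TPM of the tubular gene *Umod* in control mouse 2 and 157 TPM of the tubular gene *Slc34a1* in H77L mouse 5. The part of such RNA in the results was not tested. In sorted bulk cells, fewer cells of a type and less RNA per cell can not be told apart. Estimated reads per library ran from 14033873 to 22676212 in control and from 18358865 to 24137427 in H77L mice.

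By strict cutoffs, an absolute log2 fold change above 2 with an adjusted p below 0.001, 178 genes (1.62% of those tested) were higher and 60 (0.547%) lower in H77L mice. Irrespective of the fold change, at an adjusted p under 0.05, 2452 genes (22.4%) were higher and 2455 (22.4%) lower, and the median log2 fold change over all genes tested was -0.01. The higher genes started from low levels, with a median over genes of 2.98 TPM in control and 32.0 TPM in H77L mice, whereas the lower genes went from 35.8 to 3.77 TPM. Among the strict changes, 172 of the higher and 47 of the lower genes were protein-coding, and 6 and 11 were lncRNAs. In 1204 of the tested genes (11%) every H77L mouse lay above every control mouse, and in 1110 (10.1%) below. At the fold cutoff itself, *Phgdh* (2.0001), *Stx11* (2.0012) and *Sla* (-2.0018) were just inside, and *Retreg1* (1.9987), *B2m* (1.9959) and *2900060B14Rik* (-1.9943) just outside.

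**Figure D1:**
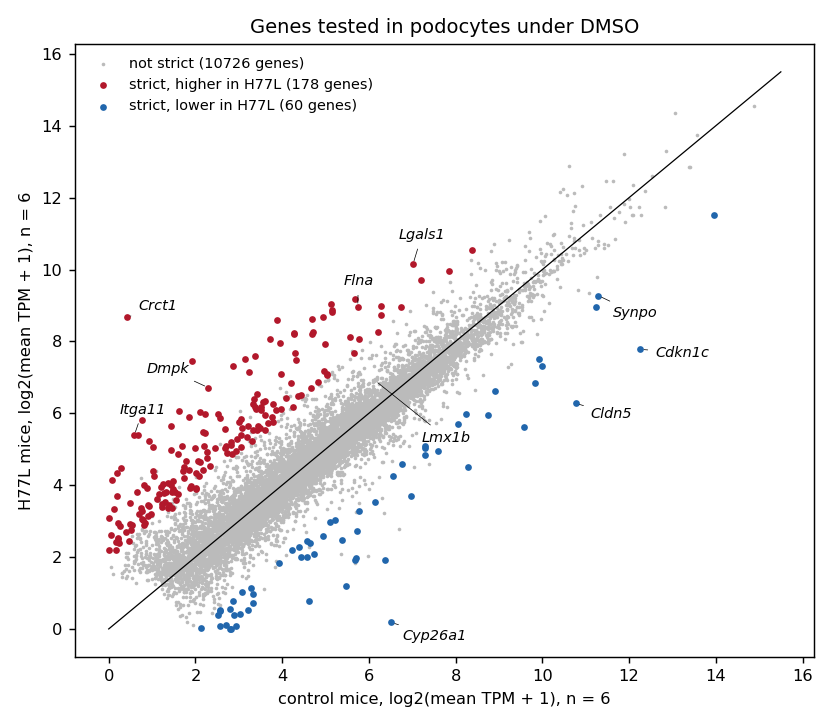
Mean level of each of the 10964 genes tested in control mice (horizontal axis) and H77L mice (vertical axis), both as log2(mean TPM + 1) over 6 mice, with the 178 genes higher (red) and 60 genes lower (blue) by the strict cutoffs and the line of equal levels. *Crct1* lies farthest above the line and *Cyp26a1* farthest below, *Synpo*, *Cdkn1c* and *Cldn5* are abundant genes below it, and *Lmx1b* lies close to it.

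The largest rises belonged to genes that control podocytes hardly contained. *Itga11*, a collagen-binding integrin chain of stromal cells, was listed at 0.538 TPM (0.239 to 0.632) in control mice and at 38.4 TPM (32.1 to 60.5) in H77L mice, a log2 fold change of 4.78 (SE 0.16, adjusted p = 4.5e-11), with all H77L mice far above all controls. Its laminin-binding relative *Itga7* went from 0.299 TPM (0 to 1.91) to 36.2 TPM (28.7 to 72.5, log2 fold change 4.78). The muscle-associated kinase gene *Dmpk* was at 2.74 TPM (2.02 to 7.99) in control and 107 TPM (66.8 to 123) in H77L mice, and the stress sensor *Gadd45g* at 10.4 TPM (6.83 to 23.6) and 309 TPM (220 to 753). Their log2 fold changes were 4.54 and 4.73, and no H77L mouse overlapped with a control mouse. *Rnd1*, a small GTPase that opposes actin stress fibres, had 3.12 TPM (0 to 5.2) in control and 76.2 TPM (40.9 to 670) in H77L mice, the top value belonging to H77L mouse 6. *Cdo1*, a cysteine-degrading enzyme, had 2.75 TPM (0.907 to 37.4) and 154 TPM (53.4 to 236), where the highest control was mouse 2. *Crct1* had the largest log2 fold change (7.50), with 0 TPM (0 to 1.24) in control and 375 TPM (39.8 to 865) in H77L mice.

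In 32 genes every control mouse was below 1 TPM and every H77L mouse above, and in 18 genes the reverse held. These classes were picked by the separation itself, and their genes passed the filter on low values only through 1 group. The p-values of their genes, *Itga11* and *Cyp26a1* included, are therefore no further support for the separation. The 10 most abundant of the first class included *Styxl2*, *Rasgrp1*, *Gys2* and *Tal2* besides *Itga11*. *Rasgrp1*, an exchange factor that activates Ras, was at most 0.482 TPM in control mice and 18.2 TPM (15.3 to 23.3) in H77L mice (log2 fold change 4.14, adjusted p = 2.4e-10). *Gys2*, the liver form of glycogen synthase, was at most 0.197 TPM in control mice and 16 TPM (11.3 to 25.2) in H77L mice. The H77L values of both genes were close together, so that the groups lay far apart. The second class held *Cyp26a1*, *Lingo2*, *Creg2*, the glycosyltransferase *Mgat5b* and *Wnt8b* among others. The synaptic adhesion gene *Lingo2* went from 7.89 TPM (7.01 to 11.1) to 0.43 TPM (0.0205 to 0.944), and *Creg2* from 5.61 TPM (2.3 to 10.1) to 0 TPM in the H77L mice other than H77L mouse 5, which had 0.0292 TPM.

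Large falls were seen in abundant podocyte genes. *Cdkn1c*, which encodes the cell cycle inhibitor p57 that marks mature podocytes, fell from 4970 TPM (4148 to 5610) to 240 TPM (76.4 to 285), a log2 fold change of -4.59 (SE 0.25, adjusted p = 9.7e-09). Claudin-5 (*Cldn5*), the main claudin of podocytes, fell from 1814 TPM (1328 to 1997) to 79.8 TPM (25 to 100, log2 fold change -4.61, adjusted p = 1.2e-08). In both genes H77L mouse 6 was the lowest, and every H77L mouse was below every control mouse. *Hs3st6*, an enzyme that sulfates heparan sulfate chains, and *Snx31*, a sorting nexin, had 752 TPM (579 to 905) and 308 TPM (265 to 374) in control mice. H77L mice had 54.7 TPM (16.8 to 66.4) of *Hs3st6* and 20.8 TPM (8.58 to 38) of *Snx31*, again without overlap. *Fgfbp1*, a carrier of fibroblast growth factors, and *Rassf2*, a Ras-association gene linked to apoptosis, had log2 fold changes of -4.33 and -3.78.

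Genes of the slit diaphragm and of the podocyte membrane did not move as 1 group. Of 39 listed genes, 36 were tested, 11 of them higher and 12 lower at an adjusted p under 0.05 beside 22.4% in each direction over all genes, and their median log2 fold change was -0.13. By the strict cutoffs 5 fell and none rose. Nephrin (*Nphs1*), which spans the slit diaphragm, had 210 TPM (131 to 246) in control and 167 TPM (115 to 195) in H77L mice (log2 fold change -0.29, adjusted p = 0.129) with overlapping groups. Without control mouse 6, the lowest control, *Nphs1* had a log2 fold change of -0.41 (adjusted p = 0.0187). Here and below, a mouse left out for a single gene was chosen for its extreme value, which by itself moves the gene towards a call. *Synpo*, an actin-associated protein of foot processes, fell from 2409 TPM (1784 to 3199) to 631 TPM (286 to 805, log2 fold change -2.06, adjusted p = 4.9e-06). *Rhpn1*, a scaffold protein of foot processes, fell from 894 TPM (788 to 1149) to 98.3 TPM (41.3 to 205), and *Sema3g*, a semaphorin secreted by podocytes, from 1030 TPM (458 to 1287) to 177 TPM (139 to 236). *Podxl* and *Ptpro* fell by 1.08 and 1.15 on the log2 scale (adjusted p = 7.1e-05 and 2.8e-05). *Tdrd5*, which is also on the list, had a log2 fold change of -2.20. In contrast, alpha-actinin-4 (*Actn4*) rose from 842 TPM (592 to 1137) to 1879 TPM (1544 to 2204, log2 fold change 1.19, adjusted p = 2.9e-05), and the adaptor *Cd2ap* by 0.30 with overlapping groups (adjusted p = 0.0152).

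**Figure D2:**
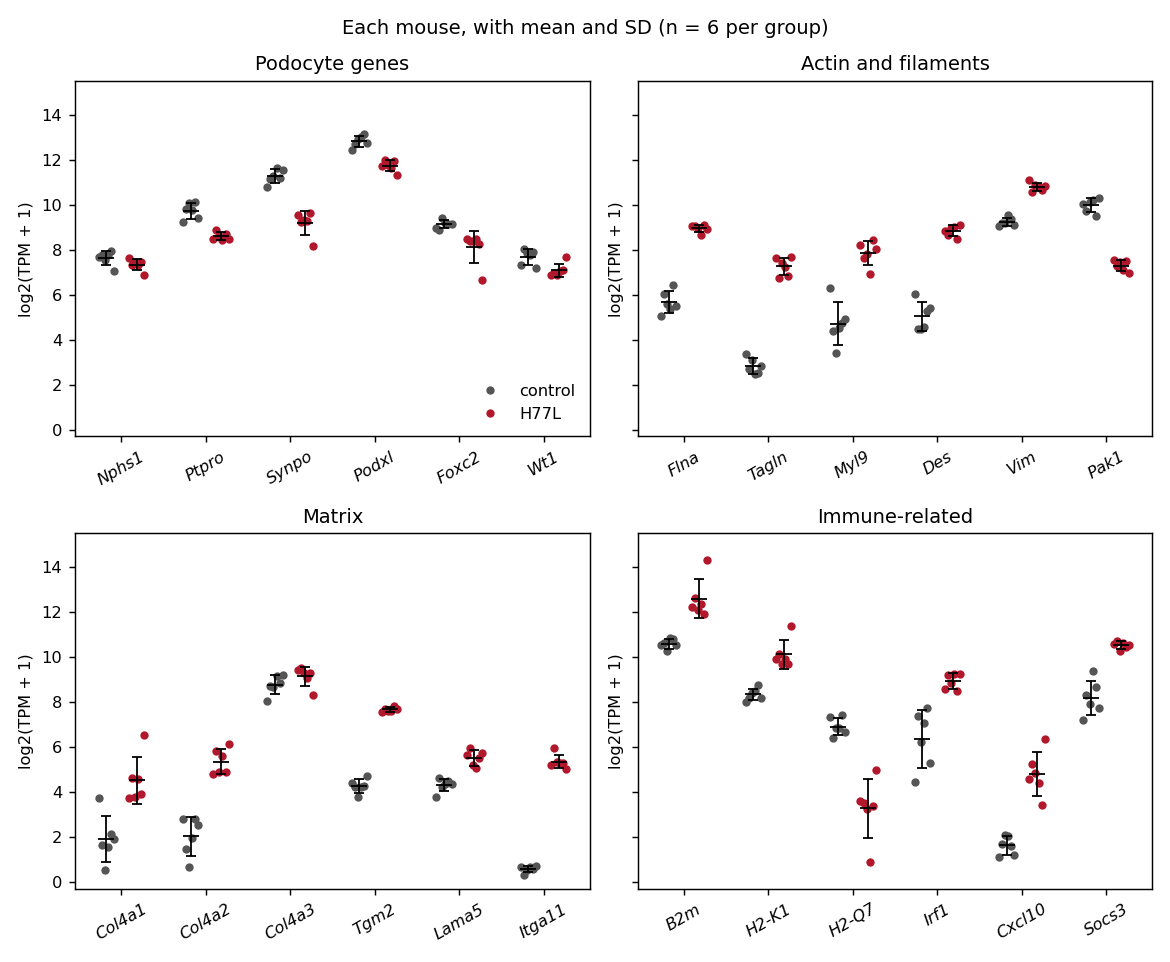
Level of 24 genes in each of the 6 control mice (grey) and 6 H77L mice (red), as log2(TPM + 1), with the mean and SD of each group drawn in black. *Ptpro*, *Synpo*, *Podxl* and *Foxc2* are lower without overlap while *Nphs1* and *Wt1* overlap, actin and matrix genes separate upwards apart from *Pak1* and *Col4a3*, and *H2-Q7* falls where *H2-K1* and *B2m* rise.

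Of 23 listed transcription factors of podocytes, 20 were tested, 6 were lower and 3 higher at an adjusted p under 0.05, beside 22.4% of all genes in each direction, and none passed the strict cutoffs. *Lmo4*, a LIM-only protein that competes for the cofactor of LIM-homeodomain factors, fell from 39.4 TPM (31.6 to 55) to 14 TPM (12.5 to 15.2, log2 fold change -1.47, adjusted p = 7.2e-07). *Foxc2* had 571 TPM (473 to 674) in control and 334 TPM (99.6 to 356) in H77L mice (log2 fold change -1.02, adjusted p = 0.00504), where H77L mouse 6 stood apart at the lower end. *Wt1* and *Tcf21*, both needed for podocyte formation, fell by 0.59 and 0.84 on the log2 scale (adjusted p = 0.0085 and 0.00257), and in both the groups overlapped. The vitamin D receptor gene *Vdr* was among the few that rose (log2 fold change 0.46, adjusted p = 0.0135).

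The largest fall was in the retinoic acid pathway. *Cyp26a1*, which degrades retinoic acid, had 83.9 TPM (66.2 to 129) in control mice, whereas H77L mice 1 to 4 were listed at 0 TPM and H77L mice 5 and 6 at 0.718 and 0.0858 TPM. Its fitted log2 fold change of -6.33 (adjusted p = 2.9e-11) depends on the pseudocount of 1. Of the 11 tested genes of the pathway, 3 were higher and 1 lower at an adjusted p under 0.05, and the share of higher genes was near the 22.4% of all genes. *Rdh10*, which makes the precursor retinaldehyde, had 15.1 TPM (12.6 to 31.2) in control and 39.8 TPM (26.5 to 344) in H77L mice (log2 fold change 1.62, adjusted p = 0.0139). Control mouse 1 and H77L mouse 6 stood above the other mice of their groups, and the groups overlapped. The receptors *Rara* and *Rxra*, named after their values were seen, rose by 1.23 and 1.5 on the log2 scale. The 250 bases before the start of *Cyp26a1* are shown because the only retinoic acid response element of the DR5 kind found in a promoter of a strictly changed gene was there, with the element in capitals (GRCm39, chr19:37685991-37686240, plus strand).

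Cyp26a1: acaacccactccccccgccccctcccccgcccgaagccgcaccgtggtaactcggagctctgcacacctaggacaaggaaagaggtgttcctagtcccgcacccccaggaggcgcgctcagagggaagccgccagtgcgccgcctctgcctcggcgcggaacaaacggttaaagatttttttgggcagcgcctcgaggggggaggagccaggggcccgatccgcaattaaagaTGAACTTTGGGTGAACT

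The element begins 17 bases before the start of the transcript. Promoters were taken as 250 bases before to 50 bases after the start of the canonical transcript and searched on both strands. The DR5 element was in 2 of 10951 promoters of tested genes (0.0183%) and in 12 of 21770 promoters of protein-coding genes (0.0551%). The homeodomain core TAATTA was in 3.93% of the promoters of strictly higher and 3.45% of strictly lower genes, beside 2.98% of tested genes. These shares describe letters only and do not show that a factor binds.

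Many actin-binding and contractile genes rose. Of 36 listed genes, 30 were tested, and 18 were higher and 3 lower at an adjusted p under 0.05, beside 22.4% of all genes in each direction. The median log2 fold change of the list was 0.67. Filamin A (*Flna*), which crosslinks actin filaments, rose from 45.5 TPM (32.5 to 86.7) to 510 TPM (408 to 547, log2 fold change 3.29, SE 0.18, adjusted p = 1.0e-08). Transgelin (*Tagln*), an actin-binding protein of smooth muscle, rose from 5.86 TPM (4.5 to 9.28) to 159 TPM (107 to 206, log2 fold change 4.43, adjusted p = 7.1e-10). Both genes separated the groups completely, as did the regulatory light chain gene *Myl9* with 23.8 TPM (9.52 to 78.2) and 246 TPM (120 to 349). *Mustn1* rose by 3.6 and the LIM protein gene *Csrp1* by 2.64 on the log2 scale. *Acta2*, which encodes smooth muscle actin, had 3.79 TPM (0 to 80.1) in control and 15.3 TPM (8.08 to 210) in H77L mice and did not pass (log2 fold change 2.34, adjusted p = 0.0772). Control mouse 1 held the highest control value, and without it the log2 fold change of *Acta2* was 3.15 (adjusted p = 0.00906). The kinase gene *Pak1*, which acts downstream of Rac and Cdc42, fell from 1070 TPM (719 to 1256) to 164 TPM (124 to 183, log2 fold change -2.68, adjusted p = 6.0e-09). Intermediate filament genes differed among themselves. Desmin (*Des*) rose from 29.9 TPM (21.3 to 64.1) to 478 TPM (360 to 550) and vimentin (*Vim*) from 576 TPM (533 to 740) to 1807 TPM (1516 to 2184), both without overlap. Their log2 fold changes were 3.81 and 1.58 (adjusted p = 2.5e-08 and 7.8e-08). The keratin gene *Krt7* fell from 44.3 TPM (34.2 to 59.4) to 15.8 TPM (5.09 to 19.4, log2 fold change -1.78, adjusted p = 1.8e-04), also without overlap, while nestin (*Nes*) differed by -0.05 and *Krt80* by -0.09 and did not pass (adjusted p = 0.827 and 0.806).

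The CArG box, the element read by serum response factor, was in the promoters of 7 of 178 strictly higher genes (3.93%) and of 1 of 58 strictly lower genes (1.72%), beside 138 of 10951 tested genes (1.26%). The 7 genes were *Clu*, *Fblim1*, *Gm5082*, *Lmcd1*, *Selenbp1*, *Tagln* and *Tal2*. The 250 bases before the start of *Tagln* (GRCm39, chr9:45847405-45847654, minus strand) and *Clu* (GRCm39, chr14:66205676-66205925, plus strand) are given because these genes had the highest TPM of the 7 in H77L mice, with the element in capitals.

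Tagln: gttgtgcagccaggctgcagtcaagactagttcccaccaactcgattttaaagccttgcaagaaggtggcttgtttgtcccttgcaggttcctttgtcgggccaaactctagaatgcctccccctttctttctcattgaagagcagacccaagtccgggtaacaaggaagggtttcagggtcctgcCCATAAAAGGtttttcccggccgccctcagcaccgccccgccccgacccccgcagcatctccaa

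Clu: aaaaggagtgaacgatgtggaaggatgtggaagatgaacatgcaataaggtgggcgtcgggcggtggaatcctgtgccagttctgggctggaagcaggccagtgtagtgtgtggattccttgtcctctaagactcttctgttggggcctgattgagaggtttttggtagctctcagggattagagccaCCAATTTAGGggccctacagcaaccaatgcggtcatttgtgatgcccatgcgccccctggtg

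The element begins 64 bases before the transcript start in *Tagln* and 62 bases before it in *Clu*.

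Most tested genes of the basement membrane rose, and none was called lower. Of 21 listed genes, 15 were tested and 12 were higher at an adjusted p under 0.05, beside 22.4% of all genes. The median log2 fold change of the list was 1.21. The collagen IV chains of the early glomerular basement membrane, *Col4a1* and *Col4a2*, rose from 2.45 TPM (0.451 to 12.2) to 18.3 TPM (12.3 to 91.1) and from 3.81 TPM (0.581 to 5.99) to 38.3 TPM (26.7 to 69.6), that is by 2.60 (SE 0.51, adjusted p = 9.6e-04) and 3.32 (SE 0.36, adjusted p = 5.3e-06) on the log2 scale. For *Col4a1* the lowest H77L mouse was just above control mouse 1, and H77L mouse 6 was far above the rest. *Col4a3*, a chain of the mature network, was much more abundant per length, with 442 TPM (267 to 593) in control and 623 TPM (319 to 724) in H77L mice, and did not pass (log2 fold change 0.37, adjusted p = 0.169). Here H77L mouse 6 was the lowest, and without it the log2 fold change was 0.53 (adjusted p = 0.0222). The laminin chains *Lama5* and *Lamb2* of the mature basement membrane rose by 1.21 and 0.64 on the log2 scale (adjusted p = 5.1e-05 and 0.0104), the latter with overlapping groups.

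Of the interstitial and matricellular matrix, 20 of 36 listed genes, among them *Col1a1* and *Fn1*, did not pass the filter on low values. Of the 16 tested genes, 8 were higher and none was lower at an adjusted p under 0.05, beside 22.4% of all genes in each direction. Transglutaminase 2 (*Tgm2*), which crosslinks matrix proteins, rose from 18.1 TPM (12.7 to 25.6) to 200 TPM (191 to 229, log2 fold change 3.40, SE 0.12, adjusted p = 1.7e-10). Its values lay close together in H77L mice, unlike those of *Ecm1*, which went from 6.6 TPM (3.77 to 26.4) to 89.2 TPM (44.7 to 130). *Ccn2*, a secreted regulator of fibrosis, rose from 1482 TPM (792 to 1790) to 4052 TPM (2666 to 7940, log2 fold change 1.71, adjusted p = 1.0e-04), while its relative *Ccn1* had 5206 TPM (1778 to 7671) and 2857 TPM (2482 to 3399) and did not pass (log2 fold change -0.62, adjusted p = 0.104). Without control mouse 1, its lowest control value, *Ccn1* had a log2 fold change of -0.88 (adjusted p = 0.00575). *Sparc*, a collagen-binding protein that podocytes make in large amounts, did not pass either (log2 fold change -0.31, adjusted p = 0.133).

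Matrix proteases and inhibitors were tested for 16 of 32 genes, with 10 higher and 2 lower at an adjusted p under 0.05. The share over all genes was 22.4% in each direction. Tissue plasminogen activator (*Plat*), a serine protease that activates plasmin, fell from 2350 TPM (2221 to 3020) to 1730 TPM (1561 to 1918, log2 fold change -0.50, adjusted p = 0.00184), while urokinase (*Plau*), the other activator, did not pass the filter. The aggrecanase *Adamts4* rose from 1.93 TPM (1.53 to 2.76) to 22.3 TPM (10.1 to 282), most of all in H77L mouse 6, and the inhibitor *Timp1* by 3.21 on the log2 scale with overlapping groups (adjusted p = 0.00297). Of integrins, adhesion anchors and tetraspanins, 11 of 19 tested genes were higher and 2 lower, beside the same 22.4%. The beta chain *Itgb1* rose from 1941 TPM (1610 to 2221) to 5168 TPM (4281 to 5467, log2 fold change 1.40, adjusted p = 3.2e-07) and the fibronectin-binding chain *Itga5* from 10.7 TPM (7.92 to 12.4) to 60.1 TPM (36.7 to 135). *Itga3*, the alpha chain by which podocytes hold laminin, had 445 TPM (333 to 621) in control and 487 TPM (387 to 689) in H77L mice and did not pass (adjusted p = 0.288). The tetraspanin *Cd63* rose from 214 TPM (163 to 310) to 963 TPM (836 to 1275), without overlap.

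Claudins and adhesion molecules changed in both directions. Against the fall of *Cldn5*, claudin-1 (*Cldn1*), known from parietal cells of Bowman's capsule, rose from 24 TPM (18 to 32.2) to 93.1 TPM (70.4 to 187, log2 fold change 2.01, adjusted p = 1.8e-06). Of the 10 tested claudins and tight junction genes, 6 were higher and 3 lower at an adjusted p under 0.05. The share over all genes was 22.4% in each direction, near that of the lower genes here. Summed over the 19 listed genes, control mice had 2277 TPM (1852 to 2432) and H77L mice 613 TPM (519 to 697), whereas without *Cldn5* the sums overlapped, with 474 TPM (422 to 523) and 525 TPM (433 to 647). The junctional molecule *Jam2* rose by 2.36, the adhesion molecules *L1cam*, *Cadm1* and *Mcam* by 2.09, 2.28 and 2.97 on the log2 scale. Beside the 22.4% of all genes called higher and their median log2 fold change of -0.01, all 7 tested parietal markers had a positive log2 fold change. Of the 7 markers, 5 were called higher at an adjusted p under 0.05. Among these, *Pax8* had 12.6 TPM (10.3 to 20.8) in control and 27.2 TPM (21 to 35.1) in H77L mice (adjusted p = 4.8e-04), and *Cd44*, which marks activated parietal cells, 0.477 TPM (0 to 4.23) and 5.95 TPM (1.76 to 23.4, log2 fold change 2.02, adjusted p = 0.00359). The groups overlapped for *Cd44*, with control mouse 1 above the lowest H77L mice. *Cd44* passed the filter on low values only through its H77L mice. A marker as low in control mice that did not rise would not have been tested, so the counts of the 7 markers favour rises. Summed over the 8 listed parietal markers, control mice had 87.2 TPM (74.2 to 123) and H77L mice 215 TPM (190 to 415), and whether parietal cells added to these results was not tested. *Pdgfrb*, a receptor of mesangial cells, rose from 13.3 TPM (9.28 to 22.1) to 196 TPM (144 to 544, log2 fold change 3.90, adjusted p = 9.5e-08), and *Cspg4*, a proteoglycan of mural cells, from 1.53 TPM (0.995 to 2.17) to 3.59 TPM (2.77 to 7.48, adjusted p = 0.00189), both without overlap. The other mesangial and mural genes listed, among them *Ren1*, *Gata3*, *Itga8*, *Notch3* and *Rgs5*, did not pass the filter. The sum over the list was 32.6 TPM (16.3 to 38) in control and 209 TPM (157 to 562) in H77L mice, and whether mesangial or mural cells added to these results was not tested.

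A pair of cell cycle inhibitors moved in opposite directions. *Cdkn1a*, the p53 target p21, rose from 7.57 TPM (3.46 to 24.6) to 49.5 TPM (31.4 to 258, log2 fold change 2.85, adjusted p = 3.9e-04) where *Cdkn1c* fell. Cyclin D1 (*Ccnd1*) had 3.22 TPM (2.41 to 14.4) in control and 10.6 TPM (7.87 to 20.7) in H77L mice and rose by 1.27 on the log2 scale (adjusted p = 0.00718) with overlapping groups, since control mouse 2 was high. The proliferation genes *Mki67* and *Top2a* did not pass the filter on low values. The pro-apoptotic *Bid* rose from 0.989 TPM (0.24 to 5.52) to 9.2 TPM (6.67 to 13.5), while *Bax* differed by -0.08 (adjusted p = 0.748).

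Many genes of the inflammatory and interferon responses rose. Of 24 tested genes of NF-kappaB, chemokine and cytokine signals, 18 were higher and 1 lower at an adjusted p under 0.05, with a median log2 fold change of 0.81. Among all genes, 22.4% were called in each direction, and the median log2 fold change was -0.01. The macrophage growth factor *Csf1* rose from 2.87 TPM (1.58 to 5.24) to 53.3 TPM (20.8 to 141, log2 fold change 3.71, adjusted p = 5.3e-06) and the neutrophil chemokine *Cxcl1* from 0.604 TPM (0 to 2.22) to 13.2 TPM (4.84 to 36.4). *Socs3*, a feedback inhibitor of cytokine receptors, rose from 278 TPM (145 to 661) to 1522 TPM (1240 to 1709, log2 fold change 2.34, adjusted p = 1.1e-05). For these 3 genes the groups did not overlap. Of 37 tested interferon-induced genes, 18 were higher and 2 lower, beside the same 22.4%. Of the 37, 33 had a positive log2 fold change, with a median of 0.59. The transcription factor *Irf1* rose from 103 TPM (21 to 210) to 522 TPM (362 to 613, log2 fold change 2.58, adjusted p = 3.8e-04) and the chemokine *Cxcl10* from 2.19 TPM (1.19 to 3.27) to 25.3 TPM (9.81 to 81.3). *Isg15*, a usual member of an interferon response, differed by 0.43 and did not pass (adjusted p = 0.257).

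The motif of interferon response elements, GAAA and GAAA with any 2 bases between them, was in the promoters of 4 of the strictly higher genes (2.25%), one of them *Cxcl10*, of 3 of the strictly lower genes (5.17%), one of them *Cdkn1c*, and in 3.25% of the promoters of tested genes. The 250 bases before the start of *Cxcl10* (GRCm39, chr5:92496749-92496998, minus strand) are shown with the motif in capitals, which begins 213 bases before the start.

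Cxcl10: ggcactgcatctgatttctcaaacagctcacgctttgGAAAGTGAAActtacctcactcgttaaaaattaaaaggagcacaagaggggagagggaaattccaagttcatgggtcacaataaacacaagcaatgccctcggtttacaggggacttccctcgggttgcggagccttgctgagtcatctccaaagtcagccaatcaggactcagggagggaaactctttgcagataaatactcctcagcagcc

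Antigen presentation by MHC class I split between genes. Beta-2-microglobulin (*B2m*), the common light chain, rose from 1533 TPM (1225 to 1857) to 5089 TPM (3819 to 20278, log2 fold change 2.00, SE 0.32, adjusted p = 1.8e-04). The classical heavy chains *H2-K1* and *H2-D1* rose from 314 TPM (260 to 429) to 968 TPM (819 to 2695) and from 1416 TPM (864 to 1878) to 3956 TPM (2832 to 10602, adjusted p = 4.9e-05 and 2.7e-04). In all 3 genes the groups did not overlap, and H77L mouse 6 was well above the others. In the opposite direction, *H2-Q6* and *H2-Q7* fell from 160 TPM (116 to 195) to 21.7 TPM (2.68 to 98.5) and from 114 TPM (83.3 to 171) to 10 TPM (0.884 to 30.6, log2 fold changes -2.84 and -3.63, adjusted p = 6.8e-04 and 3.0e-05). These are near-identical neighbours, and reads that match several places had been put at 1 of them at random, so that their single values are uncertain. Summed over *H2-Q5*, *H2-Q6* and *H2-Q7*, the control mice had 356, 259, 334, 355, 432 and 260 TPM and the H77L mice 38.1, 45.7, 29.3, 3.56, 35.2 and 144 TPM. The sum was thus lower in every H77L mouse than in every control mouse. Of 8 tested complement genes, 5 were higher and 2 lower at an adjusted p under 0.05. The share over all genes was 22.4% in each direction, near that of the lower genes here. *Clu*, which encodes the extracellular chaperone clusterin, rose from 28.4 TPM (6.78 to 134) to 488 TPM (350 to 1011, log2 fold change 4.07, adjusted p = 5.8e-05), and *Serping1*, the C1 inhibitor, from 131 TPM (97.1 to 267) to 706 TPM (418 to 1557).

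Secreted signals of podocytes were altered as well. *Vegfa*, by which podocytes maintain glomerular endothelium, fell from 1218 TPM (740 to 1447) to 543 TPM (444 to 610, log2 fold change -1.07, adjusted p = 6.6e-05), and its coreceptor *Nrp1* from 57.9 TPM (40.1 to 66.7) to 26.7 TPM (23.4 to 39). The epidermal growth factor receptor ligand *Hbegf* rose from 3.51 TPM (1.76 to 5.82) to 28.8 TPM (20.2 to 68.6) and *Wnt4*, a signal of nephron formation, from 7.71 TPM (4.19 to 9.58) to 44.7 TPM (31.9 to 75.8), both without overlap. *Tgfb1* rose from 3.1 TPM (2.35 to 3.81) to 12.3 TPM (7.56 to 25.1, log2 fold change 1.78, adjusted p = 4.0e-05), and *Tgfb3* by 2.23 (adjusted p = 4.5e-04), where control mouse 1 with 34.9 TPM lay within the H77L range. Of the 21 tested immediate early genes, 11 were higher and 1 lower at an adjusted p under 0.05, beside 22.4% of all genes in each direction. However, *Fos* had 13966 TPM (3651 to 17440) in control and 14726 TPM (7956 to 15949) in H77L mice and did not pass (adjusted p = 0.448). *Maff*, a small Maf factor, rose by 2.26 on the log2 scale. The galectins *Lgals1* and *Lgals3* rose from 104 TPM (77.2 to 276) to 1054 TPM (688 to 1815) and from 5.38 TPM (0 to 36.9) to 191 TPM (43.7 to 849), and the calcium-binding *S100a6* from 26.4 TPM (14.2 to 84.2) to 427 TPM (162 to 1130). All 3 genes kept the groups apart.

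**Figure D3:**
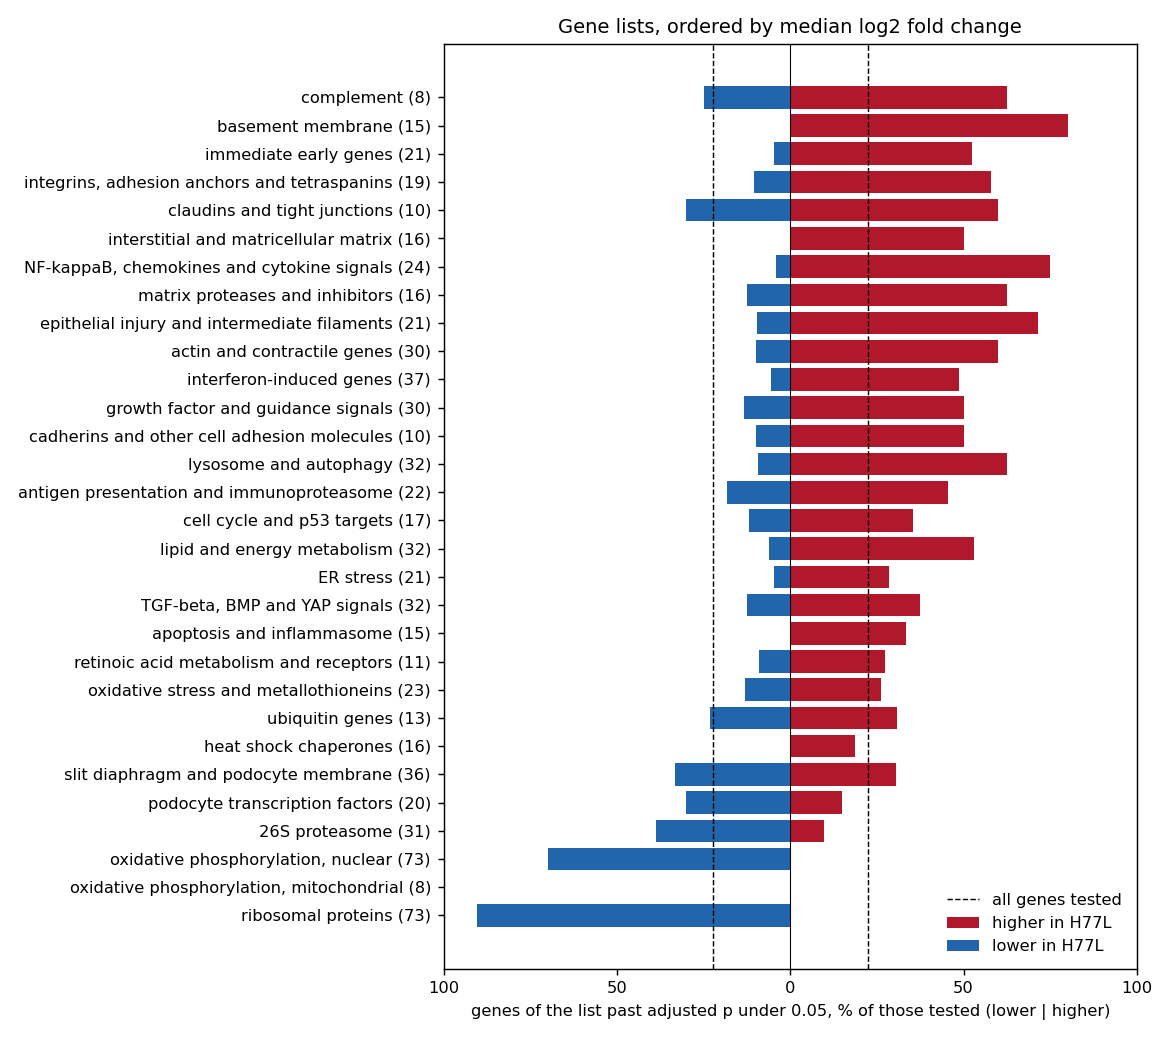
Share of the tested genes of each list (number in brackets) that were higher (red, to the right) or lower (blue, to the left) in H77L mice at an adjusted p under 0.05, ordered by the median log2 fold change, with dashed lines at the 22.4% of all tested genes in each direction. Basement membrane and inflammatory lists lie beyond the line on the higher side, and ribosomal proteins and nuclear-encoded oxidative phosphorylation genes beyond it on the lower side.

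Housekeeping groups shifted by small amounts in many genes. The counts of the main fit in this paragraph stand beside 22.4% of all genes called in each direction. Of 73 tested ribosomal protein genes, 66 were lower and none was higher at an adjusted p under 0.05, with a median log2 fold change of -0.51, and their sum was 14429 TPM (10838 to 17224) in control and 9896 TPM (9594 to 11102) in H77L mice. Reads shared with pseudogenes of this family could be split between copies, which makes single values uncertain. *Rpl24* and *Rps10* had medians of only 0.178 and 0.0908 TPM in control mice and 0.0826 and 0.29 TPM in H77L mice. Whether reads of such genes were missed, and the sum with them, was not tested. With *Xist*, an RNA of female cells, as a covariate, 18 ribosomal protein genes were called lower, with the mouse number of the labels as a covariate 51, and with only H77L mice 2 and 5, whose mouse numbers lie within the control range, 33. In *Rps18*, control mice had 80.6 TPM (64 to 105) and H77L mice 45.3 TPM (26.5 to 49.4). Of 73 nuclear-encoded oxidative phosphorylation genes, 51 were lower and none higher (median -0.37), for example *Ndufb10* of complex I with 525 TPM (428 to 609) and 303 TPM (252 to 340, log2 fold change -0.80, adjusted p = 1.5e-05). Of these genes, 14 were called lower with *Xist* as a covariate, 29 with the mouse number and 23 with only H77L mice 2 and 5. The counts of both lists in these fits stand beside smaller shares of all genes than in the main fit. Over all genes tested, 1055 of 10964 were called lower with *Xist*, 1405 of 10964 with the mouse number and 1088 of 11407 with only H77L mice 2 and 5. Of 8 tested genes of the mitochondrial genome, none passed, and their median log2 fold change was -0.50, with *mt-Nd1* at 3971 TPM (2865 to 8931) and 3006 TPM (2290 to 6045). H77L mouse 5 was the highest of its group for *mt-Nd1*, and without it the adjusted p was 0.0467. Subunits of the 26S proteasome, which degrades ubiquitinated proteins, were lower in 12 and higher in 3 of 31 genes (median -0.18). The catalytic subunit *Psmb5*, the target of bortezomib, fell from 452 TPM (414 to 521) to 327 TPM (315 to 388, log2 fold change -0.44, adjusted p = 8.5e-04), and the lid subunit *Psmd11* rose by 0.32 on the log2 scale (adjusted p = 0.00843). Lysosome and autophagy genes went the other way, with 20 of 32 higher and 3 lower (median 0.46). The hexosaminidase chain *Hexa* rose from 123 TPM (98 to 141) to 295 TPM (251 to 372, log2 fold change 1.31, adjusted p = 6.1e-07) and the autophagy receptor *Sqstm1* from 1229 TPM (1083 to 1370) to 2003 TPM (1570 to 2326).

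Stress responses to unfolded proteins had no strict change. Of 21 tested genes of endoplasmic reticulum stress, 6 were higher and 1 lower at an adjusted p under 0.05, with a median log2 fold change of 0.15, and the share of higher genes was near the 22.4% of all genes. The chaperone *Hspa5* and the transcription factor *Ddit3* rose by 0.68 and 0.73 on the log2 scale (adjusted p = 0.00902 and 0.00589), both with overlapping groups. Of 16 heat shock chaperones, 3 were higher and none lower, and *Hspa1a*, which has a near-identical neighbour, differed widely within groups, with 434 TPM (88 to 1091) in control and 280 TPM (46.1 to 837) in H77L mice. Of 23 genes of oxidative stress, 6 were higher and 3 lower, likewise near or under that share. The secreted glutathione peroxidase *Gpx3* rose from 3774 TPM (2154 to 6330) to 9291 TPM (6772 to 13299, log2 fold change 1.41, adjusted p = 5.5e-04), while heme oxygenase-1 (*Hmox1*) did not pass (log2 fold change -0.29, adjusted p = 0.284). H77L mouse 6 was the highest of all mice for *Hmox1*, and without it the log2 fold change was -0.51 (adjusted p = 0.00431).

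The mice differed in how far they went. H77L mouse 6 was the highest H77L mouse in 109 of the 178 strictly higher genes, and the other five were highest in 6 to 23 genes each. Among the 60 strictly lower genes it was the lowest in 18, and the others in 4 to 12. Control mouse 1 was the highest control in 64 of the 178 genes. Without control mouse 1 and H77L mouse 6, 183 genes were higher and 57 lower by the strict cutoffs, 156 and 53 of which were among the 178 and 60. Without control mice 1 and 2 and H77L mice 5 and 6, 194 were higher and 61 lower, 157 and 52 of which were shared. The median SD of log2(TPM + 1) over genes was 0.25 among control and 0.22 among H77L mice. Mouse numbers of 4 of the 6 H77L mice were above those of all controls, and with only H77L mice 2 and 5, whose numbers lie within the control range, 84 genes were higher and 41 lower, 71 and 38 of which were shared.

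The same genotypes were compared in 12 other mice that had received bortezomib at 0.3 μg/g. Of the 178 strictly higher genes, 162 could be tested there, all 162 had a positive log2 fold change, and 150 were higher at an adjusted p under 0.05, beside 12.5% of all 10805 genes tested. Of the 60 strictly lower genes, 53 could be tested, and all 53 were lower at an adjusted p under 0.05, beside 11% of all genes. The filter on low values was applied anew in these mice. A gene whose change was lost there could thus drop out of the test, so these counts favour genes that kept it. Without the filter, 157 of the 178 and 56 of the 60 genes were called in the same direction. Since the genes were chosen for a large fold change under DMSO, smaller values in other mice can follow from the choice alone, and no difference between the treatments is read from them. The median log2 fold change of the testable genes was 2.60 under DMSO and 1.98 under bortezomib for the higher genes, and -2.49 and -2.04 for the lower genes. *Cyp26a1* (log2 fold change -6.36), *Tagln* (4.36), *Flna* (3.12) and *Tgm2* (3.27) had nearly the values of the DMSO-treated mice. Log2 fold changes nearer to 0 were found for *Cldn5* (-3.61), *H2-K1* (0.92) and *Crct1* (3.74). *Socs3*, *Irf1*, *Cxcl1*, *Maff* and *H2-Q4* were among the 12 higher genes that were tested but not called under bortezomib, with log2 fold changes of 0.07, 0.64, 1.06, 0.64 and 0.57. The difference of the genotype effects between treatments was itself tested by an interaction term in limma. None of 11163 genes passed an adjusted p under 0.05, 2037 had an unadjusted p under 0.05, and the lowest adjusted p was 0.0564 for *Socs3*. The 2037 genes are a larger share than the 0.05 that chance gives for independent genes. The test therefore did not show that the genotype effects were equal under both treatments.

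**Figure D4:**
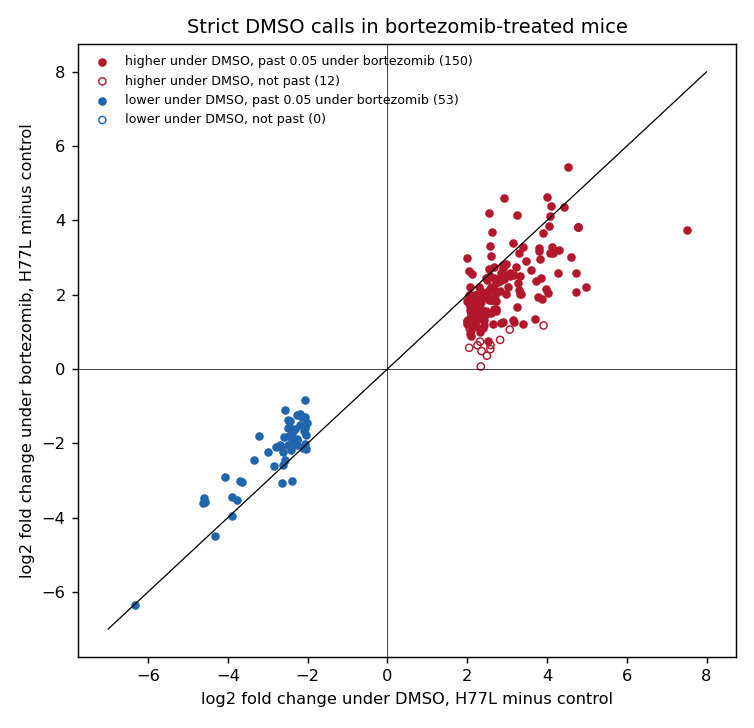
Log2 fold change of H77L over control mice under DMSO (horizontal axis) and in separate mice under bortezomib (vertical axis) for the 215 strictly changed genes that could be tested in both, filled where the adjusted p under bortezomib was under 0.05, with the line of equal values. All of the genes shown keep their sign, most points lie nearer to 0 on the vertical axis, as the choice of genes by their values under DMSO alone can give, and 12 higher genes are open circles. Genes that failed the filter on low values under bortezomib are not shown.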

How the data were processed

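Podocytes sorted from 35 mice were sequenced as single-end poly(A) libraries made with SMART-Seq. The authors deposited 1 table of TPM values per gene and mouse. Per the labels and the study's methods, reads were trimmed with Trim Galore 0.6.7, aligned to GRCm39 with STAR, with reads matching several places put at 1 of them at random, and counted with featureCounts 1.6.3. Picard assessed duplicates, which were not removed. The step from counts to TPM is not given in the sources used here. TPM fixes the total of each library, so that a rise of abundant genes lowers the share of all others.

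TPM values were transformed to log2(TPM + 1), and genes that exceeded 1 TPM throughout the control group, the H77L group or both were compared with limma 3.58.1 (lmFit and eBayes with an intensity trend, R 4.3.3), with p-values adjusted after Benjamini and Hochberg over all 10964 genes. The study's methods used DESeq2 on counts with the same cutoffs, which was not run here because TPM values are no counts. For 90.3% of 23943 genes, the values were whole multiples of 1 read within a tolerance of 0.001 reads, for 4492 genes at the annotated length and for 17126 only at a length that was searched for. The estimated reads per library come from these steps and were tested with limma's voom as an alternative. Mice were grouped by their labels. The study's methods state that mice came from different litters, but no source ties a mouse to a litter or sorting day, so these were no terms in a fit. Genes were named as the 10 largest rises and falls without overlap, the strictly changed or leading members and set reference genes of each gene list, and the 10 most abundant genes above 1 TPM in 1 group only. Other genes named, such as *Rara*, *Rxra*, *Krt7*, *Krt80*, *Nes*, *Cspg4*, *H2-Q5*, *Fblim1*, *Lmcd1* and *Selenbp1*, were chosen after their values were seen. The comparison and the lists were chosen with earlier results of these data known. Lists are described by counts and medians and were not tested as sets. A gene low in 1 group entered these counts only through the group where it was higher. Of simulated data on 10832 genes for this comparison, 96 of 100 genes changed by 2.5 on the log2 scale passed the strict cutoffs, and 91 of 100 changed by 1 passed an adjusted p under 0.05, as did 8 unchanged genes. Only genes above a set mean level were changed, and the noise was drawn independently for each gene. The simulation thus did not cover genes of low level or deviations that many genes of 1 library share. Promoters and transcript starts were read from the GRCm39 genome and its annotation. Python 3.11.15 with matplotlib 3.10.9 was used for lists, sequences and figures. The C118F mice were not analysed here except in 1 alternative fit over all mice.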

Additional observations from a re-analysis of the deposited data

Results flagged for a closer look

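Within a group of 6 mice, the highest or lowest mouse was singled out where its gap to the nearest other mouse exceeded, as a share of the range of log2(TPM + 1), Dixon's critical value for 6 values. Of the 264 groups examined for the genes described, 42 exceeded it, where chance gives about 1 in 20 groups, and genes of 1 library are not independent. H77L mouse 6 was the highest of its group with levels of 20278 TPM of *B2m*, 91.7 TPM of *Bax*, 187 TPM of *Cldn1*, 91.1 TPM of *Col4a1*, 943 TPM of *Csrp1*, 10602 TPM of *H2-D1*, 2695 TPM of *H2-K1*, 68.6 TPM of *Hbegf*, 102 TPM of *Hmox1*, 42.1 TPM of *Mcam*, 39 TPM of *Nrp1*, 344 TPM of *Rdh10*, 196 TPM of *Timp1* and 201 TPM of *Wt1*. It was the lowest of its group with 76.4 TPM of *Cdkn1c*, 25 TPM of *Cldn5*, 319 TPM of *Col4a3*, 7956 TPM of *Fos*, 99.6 TPM of *Foxc2*, 2091 TPM of *Sparc* and 286 TPM of *Synpo*. H77L mouse 5 was the highest with 0.0292 TPM of *Creg2*, 0.718 TPM of *Cyp26a1*, 0.31 TPM of *Mgat5b*, 157 TPM of *Slc34a1* and 6045 TPM of *mt-Nd1*. It was the lowest with 4281 TPM of *Itgb1*. H77L mouse 4 was the lowest with 66.8 TPM of *Dmpk* and 26.5 TPM of *Rps18*. H77L mouse 2 was the highest with 60.5 TPM of *Itga11*. Among control mice, mouse 1 was the highest with 4.23 TPM of *Cd44*, 7.19 TPM of *Csf1r*, 276 TPM of *Lgals1*, 31.2 TPM of *Rdh10*, 267 TPM of *Serping1* and 34.9 TPM of *Tgfb3*. Control mouse 2 was the highest with 5.52 TPM of *Bid*, 14.4 TPM of *Ccnd1*, 37.4 TPM of *Cdo1*, 1.69 TPM of *Cubn*, 11.1 TPM of *Lingo2* and 0.412 TPM of *Tal2*.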

How the results depend on the processing

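Counts were recomputed under 28 alternatives, 12 of which left out 1 mouse. Leaving out 1 mouse gave 155 to 203 strictly higher and 54 to 61 strictly lower genes, 2158 to 2529 and 2165 to 2437 genes at an adjusted p under 0.05, 252 to 274 and 176 to 197 genes of the lists, and 148 to 155 and 52 to 55 of the strict changes called under bortezomib. Adjusted for mouse number, 115 genes were strictly higher, and 1468 were higher and 1405 lower at an adjusted p under 0.05. With *Xist* as a covariate these were 1304 and 1055, with 84 list genes lower. With the 2 H77L mice whose numbers lie within the control range, 84 genes were strictly higher, 1133 higher and 1088 lower, and 174 and 101 list genes were higher and lower; fewer samples entered this fit. Looser cutoffs, an absolute log2 fold change above 1 at an adjusted p under 0.05, gave 772 higher and 363 lower genes. The cause of the changes under the covariates was not tested. Genotype and mouse number are partly confounded. Of 134 genes described with a fitted value, 100 kept their direction and side of the cutoffs with the mouse number, 86 with the 2 H77L mice in the control range and 100 with *Xist*, where the log2 fold changes of *Col4a3* and *Fos* turned to -0.134 and -0.196, neither being called. When 1 mouse was left out, 2 to 13 of the 134 genes no longer passed the cutoff they had passed, and 0 to 3 newly passed. The fits without 1 mouse given above for *Nphs1*, *Acta2*, *Col4a3*, *Ccn1*, *mt-Nd1* and *Hmox1* show only the second kind. The log2 fold changes of *Nes* and *Krt80* lay near 0 and changed sign, with -0.173 to 0.0609 and -0.268 to 0.0559 when 1 mouse was left out, and for *Nes* 0.188 with the mouse number and 0.106 with the 2 H77L mice. At an adjusted p under 0.05, *Wt1*, *Tcf21*, *Lmx1b*, *Lamb2*, *Cubn*, *Cd2ap*, *Hspa5*, *Ddit3* and *Psmd11* were no longer called with *Xist*, *Wt1*, *Plat*, *Psmb5*, *Ccnd1*, *Cd44*, *Cd2ap*, *Hspa5*, *Ddit3*, *Psmd11*, *Rdh10* and *Timp1* were not with the 2 H77L mice, and *Foxc2*, *Ccnd1*, *Cd44*, *Cd2ap*, *Hspa5*, *Ddit3*, *Psmd11*, *Rdh10* and *Timp1* were not with the mouse number. Of the lists, interferon-induced genes higher at that cutoff were 8 with the mouse number and 8 with the 2 H77L mice, beside 37 tested in the main fit. Immediate early genes were 5 and 4 (4 with *Xist*) beside 21, and matrix proteases and inhibitors 6 and 5 beside 16. Genes of endoplasmic reticulum stress were 3 and 2 (3 with *Xist*) beside 21. Over all genes, 1468 of 10964 were higher with the mouse number, 1133 of 11407 with the 2 H77L mice and 1304 of 10964 with *Xist*. With the mouse number 11 of 24 NF-kappaB, chemokine and cytokine genes and 13 of 32 lysosome and autophagy genes were higher. Lower subunits of the 26S proteasome were 6 with *Xist* and 4 with the 2 H77L mice, beside 31 tested in the main fit. Over all genes, 1055 of 10964 and 1088 of 11407 were lower in these 2 fits. Of 36 slit diaphragm and podocyte membrane genes, 5 were higher with *Xist*. Voom and the fits that left out several mice of both groups were chosen after seeing the data, and voom on the recovered reads gave 206 strictly higher and 85 strictly lower genes, 147 and 56 of them shared. No paired analysis was possible because no source used here pairs mice of the 2 genotypes. Low genes limit the fold changes, since 1 TPM is added to each value.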
